A study of Homo sapiens with 24 samples.

Results

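The FOS, JUN and EGR genes are immediate early genes, and 10 of them, FOS, FOSB, FOSL1, FOSL2, JUN, JUNB, JUND, EGR1, EGR2 and EGR3, were followed here through stress and DDX3 inhibition in the cytoplasm of U2OS cells. They were taken by symbol from an exon table of 60308 genes and from an intron table of 37473 genes. All 10 passed the filter on low exon counts, which left 17666 genes. U2OS comes from a human bone tumour, an osteosarcoma. Of 4 treatments, Ctrl was the vehicle, 0.12% DMSO given over 2 h. The NaAsO2 cells had 60 min at 500 µM, the RK-33 cells had 6 µM of the inhibitor with 1 h of pre-treatment, and the Combo cells had both agents. Whether the NaAsO2 cells also had DMSO is not stated, so NaAsO2 minus Ctrl may differ in vehicle as well. NaAsO2 is sodium arsenite, an oxidative stressor that induces stress granules, and RK-33 is a small-molecule inhibitor of the RNA helicase DDX3. Each treatment was sequenced as a soluble and an insoluble cytoplasmic fraction with 3 replicates, which gave 24 rRNA-depleted libraries in 8 groups. Both fractions came from the same lysate, which was spun fast after the nuclei had been removed. The insoluble fraction was the pellet, and it is enriched for stress granules and P-bodies without being a pure preparation of either. A single cell line, dose and time stand behind each group, and the replicates are repeats of the sequencing experiment by the study's methods, which do not name separate cultures, so p-values measure the spread between these repeats.

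Immediate early genes are transcribed within minutes of a growth or stress signal, from promoters whose transcription factors are already present and are switched on by MAP kinase signalling. FOS and JUN family proteins pair through leucine zippers into AP-1, and the EGR proteins are zinc-finger transcription factors that bind GC-rich DNA. Many of their mRNAs carry AU-rich elements and decay fast, so their levels follow both synthesis and decay.

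The libraries held 10968059 to 19799530 exon and intron counts, with a median of 14567729. Levels below are exon counts in CPM, scaled to effective library size by TMM, so each is relative to the other RNA of the same library, and fewer cells and less RNA per cell cannot be told apart. Of 9 mesenchymal and osteoblast markers, 5 or 6 reached 1 CPM in each group, among them VIM at 889 CPM and SPARC at 2490 CPM in the soluble Ctrl libraries, while TWIST1 (0.0714 CPM) and BGLAP (0.031 CPM) were near 0, and the 9 together ranged from 2210 to 9340 CPM. The 8 epithelial, haematopoietic and endothelial markers summed to 10.7 to 19.2 CPM. Replicate 3 of the insoluble NaAsO2 group stood furthest from the other replicates of its group (chi-square per degree of freedom 142 and 130). In this library RN7SL1, an abundant cytosolic RNA, took 5.79% of the exon counts against 0.426% to 1.23% in the other insoluble libraries and 7.51% to 15.5% in the soluble ones. The part of this library's RNA make-up in the results was not tested. For members and gene lists, values without it are given where it changed a call or moved a described value by more than 1.5 times. Replicate 3 of soluble RK-33 (chi-square 32.4 and 23.1) and replicate 3 of insoluble Combo (25.5 and 32.1) also stood off from their groups. The remaining replicate pairs gave 2.39 to 7.01. The RK-33 and Combo results were also fitted without each of these libraries, and changes in the members called are named or counted below. The part of their RNA make-up was not tested either.

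Promoter sequences are shown for FOS, FOSB, JUN and EGR1, the 4 members called higher when RK-33 was added to NaAsO2 in the soluble fraction. RefSeq start sites on GRCh38 matched 8 of the 10 members with 10 promoters of 300 bases, from 250 bases before the start to 50 after. They are given 5′ to 3′ on the gene's strand, with capitals for the CArG box, the site of serum response factor, and for the CRE core TGACG or its reverse complement CGTCA, the core of the site of CREB and ATF proteins.
FOS, chr14:75278578-75278877, plus strand: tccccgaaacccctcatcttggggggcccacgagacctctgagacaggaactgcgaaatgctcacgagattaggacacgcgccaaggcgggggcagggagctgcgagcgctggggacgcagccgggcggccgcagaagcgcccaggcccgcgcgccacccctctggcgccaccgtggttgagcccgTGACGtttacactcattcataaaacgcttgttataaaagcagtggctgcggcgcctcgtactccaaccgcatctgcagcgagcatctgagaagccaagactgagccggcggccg
FOSB, chr19:45467746-45468045, plus strand: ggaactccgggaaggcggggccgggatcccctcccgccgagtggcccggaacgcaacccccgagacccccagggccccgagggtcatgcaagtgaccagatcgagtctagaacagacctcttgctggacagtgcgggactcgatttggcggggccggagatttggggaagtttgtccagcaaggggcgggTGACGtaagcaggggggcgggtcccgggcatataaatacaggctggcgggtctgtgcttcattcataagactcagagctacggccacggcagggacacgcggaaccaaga
JUN, chr1:58783998-58784297, minus strand: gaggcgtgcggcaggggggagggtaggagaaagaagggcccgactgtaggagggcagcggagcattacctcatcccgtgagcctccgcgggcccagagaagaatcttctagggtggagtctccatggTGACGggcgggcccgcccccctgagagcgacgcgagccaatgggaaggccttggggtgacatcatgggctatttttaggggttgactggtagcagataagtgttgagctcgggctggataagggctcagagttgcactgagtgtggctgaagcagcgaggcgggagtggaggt
EGR1, chr5:138465229-138465528, plus strand: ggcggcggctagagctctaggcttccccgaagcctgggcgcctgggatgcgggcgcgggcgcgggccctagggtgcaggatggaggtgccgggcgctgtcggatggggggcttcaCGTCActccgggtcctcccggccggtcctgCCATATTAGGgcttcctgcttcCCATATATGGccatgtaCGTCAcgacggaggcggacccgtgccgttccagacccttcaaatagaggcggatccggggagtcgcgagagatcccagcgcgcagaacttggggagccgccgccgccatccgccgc
The EGR1 window holds 2 CArG boxes, which begin at -105 and -83 from the start base (counted as 0), and 2 CRE cores, at -135 and -66. In FOS the CRE core begins at -64 and a TATA box (TATAAA, sense strand) at -33, and in FOSB the same pair begins at -60 and -30. JUN has a CRE core at -123. Over both strands, 8 of the 10 member promoters hold TGACG, against 24.6% of 35116 RefSeq promoters, and 2 of the 10 (EGR1 and 1 of 3 for EGR2) hold a CArG box, against 1.29%. Read on the sense strand, TATAAA occurs in 3 of the 10 (FOS, FOSB, JUNB), against 7.33%. Of the other motifs scanned, the EGR site occurs in 2 of the 10, against 9.43%. The AP-1 site (against 7.71%), JUN2-type AP-1 site (2.61%), heat shock element core (6.77%) and full CRE (1.85%) occur in 1 of the 10 each. JUN has the JUN2-type site at -67 and the heat shock element core at -150, and EGR1 has an EGR site at -198. These matches are descriptions of the letters in the windows and were not tested as binding sites. Bases more than 250 before the start were not scanned, so a motif absent here can lie further upstream.

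FOS, the founding partner of JUN in AP-1 (chromosome 14, 75278826 to 75282230, plus strand), had the largest ratio of highest to lowest library among the members over 20 CPM in all libraries. In the soluble fraction it stood at 27.7, 32.9 and 25.4 CPM in the 3 Ctrl libraries, 132, 147 and 142 after NaAsO2, 86.9, 97.5 and 124 after RK-33 and 523, 575 and 676 in Combo. The insoluble libraries ran in parallel, at 27.5, 26.3 and 25.01 CPM in Ctrl, 142, 150.4 and 177 after NaAsO2, 75.8, 78.9 and 86.8 after RK-33 and 501, 505 and 578 in Combo. In both fractions the 4 treatments did not overlap, with Ctrl lowest, then RK-33, then NaAsO2, and Combo highest. The 3′ UTR of FOS holds 1 copy of the AU-rich nonamer TTATTTATT, shown in capitals, at chr14:75282060-75282088 on the plus strand.
FOS, 3′ UTR site: tgtttttaatTTATTTATTaagatggatt
Among 19550 3′ UTRs, 8.44% hold this nonamer.

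FOSB, a close relative of FOS (chromosome 19, 45467995 to 45475179, plus strand), was highest by far in Combo. Its soluble levels were 7.91, 7.27 and 6.42 CPM in Ctrl, 12.98, 19.9 and 15.8 after NaAsO2, 9.82, 8.88 and 6.56 after RK-33 and 89.3, 93.5 and 121 in Combo. The insoluble ones were 7.36, 4.23 and 5.31 in Ctrl, 14.5, 16.8 and 23.4 after NaAsO2, 5.23, 8.27 and 7.23 after RK-33 and 52.3, 53.5 and 64.2 in Combo. The RK-33 libraries overlapped Ctrl in both fractions, whereas every Combo library lay above every other library of its fraction. FOSB lies inside ERCC1 on the opposite strand without sharing an exon, and the counting used no strand. ERCC1 introns were at 79.2 to 93.3 CPM in Ctrl, 121 to 130 CPM after NaAsO2 and 97.2 to 145 CPM in Combo in the soluble fraction. The insoluble ERCC1 introns were at 37.0 to 43.4 CPM in Ctrl, 55.9 to 116 CPM after NaAsO2 and 42.9 to 56.8 CPM in Combo. Their insoluble NaAsO2 minus Ctrl difference was 0.996 on the log2 scale (SE 0.20, edgeR adjusted p = 0.000498). The insoluble NaAsO2 libraries were spread widely (mean 79.9 CPM, SD 32.0), and the difference without replicate 3 was not computed. The part of ERCC1 fragments in the FOSB counts was not tested.

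FOSL1 and FOSL2 encode the Fra proteins, FOS relatives without a strong transactivation domain. FOSL1 (chromosome 11, 65892049 to 65900573, minus strand) had soluble levels of 107, 136 and 107 CPM in Ctrl, 204, 183 and 203 after NaAsO2, 162, 160.4 and 211 after RK-33 and 209, 221 and 206 in Combo. Its insoluble levels were lower in every treatment, at 57.9, 53.6 and 44.5 in Ctrl, 152, 139 and 156 after NaAsO2, 64.2, 66.2 and 66.3 after RK-33 and 128, 131 and 126 in Combo. Every treated library of FOSL1 lay above the Ctrl libraries of its fraction, while soluble Combo overlapped soluble RK-33. FOSL2 (chromosome 2, 28392448 to 28417317, plus strand) had soluble libraries at 538, 499.5 and 490.1 CPM in Ctrl, 379.7, 366 and 363 after NaAsO2, 538, 580.5 and 613 after RK-33 and 453, 462 and 433 in Combo. Its insoluble libraries stood at 588, 577 and 608 in Ctrl, 1001, 1093 and 1357 after NaAsO2, 823, 872 and 836 after RK-33 and 946, 998 and 1130.2 in Combo. After NaAsO2 its soluble libraries lay below, and its insoluble libraries above, every Ctrl library of the same fraction, and the fractions did not overlap in any treatment. Its long 3′ UTR (4869 bases) holds 9 ATTTA pentamers, more than 85.2% of 3′ UTRs, and the other TTATTTATT nonamer found among the members, at chr2:28416355-28416383 on the plus strand.
FOSL2, 3′ UTR site: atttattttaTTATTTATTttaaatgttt

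**Figure D1:**
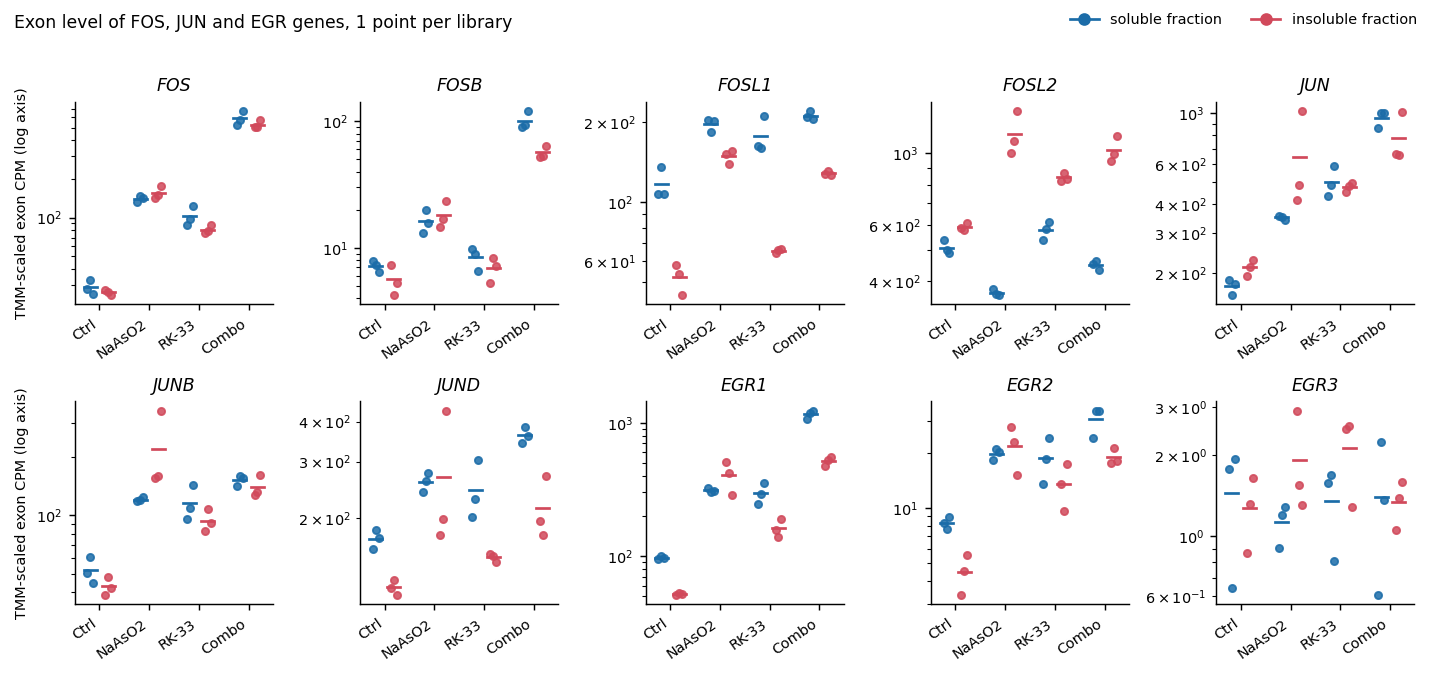
TMM-scaled exon CPM (log axis, with its own range in each panel) of the 10 members in the 4 treatments, with 1 point per library and a bar at the mean of 3, in blue for the soluble and red for the insoluble fraction. FOS, FOSB and soluble EGR1 are highest in Combo, FOSL2 after NaAsO2 lies above Ctrl in the insoluble and below it in the soluble fraction, and 1 insoluble NaAsO2 library lies well above the other two for JUN, JUNB and JUND.

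Of the JUN family, JUN (chromosome 1, 58776845 to 58784048, minus strand) is the classical partner of FOS. In the soluble fraction it stood at 187, 161 and 180.2 CPM in Ctrl, 357, 354 and 343 after NaAsO2, 435, 486 and 587 after RK-33 and 862, 1002 and 1005 in Combo, and the 4 groups did not overlap. The insoluble libraries held 196, 213 and 228 CPM in Ctrl, 417, 487 and 1025 after NaAsO2, 454, 484 and 499 after RK-33 and 666, 659 and 1017 in Combo. Replicate 3 of the insoluble NaAsO2 group was more than 2 times the other two here, and replicate 3 of insoluble Combo was also high. JUNB, which shares DNA sites with JUN but activates them less (chromosome 19, 12791486 to 12793315, plus strand), stood at 50.3, 61.1 and 45.0 CPM in soluble Ctrl, 118, 119.8 and 124 after NaAsO2, 96.0, 109 and 142 after RK-33 and 141, 159 and 155 in Combo. Its insoluble levels were 38.9, 48.2 and 42.2 in Ctrl, 155, 159.6 and 346 after NaAsO2, 82.9, 107 and 90.6 after RK-33 and 127, 132 and 161 in Combo. Every treated library of JUNB lay above Ctrl, and Combo overlapped RK-33 in the soluble and NaAsO2 in the insoluble fraction. JUND, the member expressed most evenly in resting cells in general (chromosome 19, 18279694 to 18281622, minus strand), stood at 160.0, 183 and 173 CPM in soluble Ctrl, 241, 260.1 and 277 after NaAsO2, 202, 229.7 and 303 after RK-33 and 342, 385 and 359.7 in Combo. The insoluble libraries of JUND held 121, 128 and 115 CPM in Ctrl, 177, 199 and 433 after NaAsO2, 155, 152 and 146 after RK-33 and 196, 177 and 271 in Combo, and the treated libraries lay above Ctrl in both fractions. In all 3 JUN genes the same NaAsO2 library, replicate 3, was the highest of its group, at 2.27, 2.20 and 2.30 times the mean of the other two for JUN, JUNB and JUND. JUNB shares 259 bases of exon with HOOK2 on the opposite strand, and fragments there could not be assigned by strand. HOOK2 exons stood at 12.4 to 15.5 CPM in insoluble Ctrl and 15.2 to 32.6 CPM after NaAsO2. That log2 difference was 0.63 (SE 0.25, edgeR adjusted p = 0.0441), and the part of HOOK2 in the JUNB counts was not tested. The insoluble NaAsO2 libraries were spread widely for HOOK2 (mean 21.7 CPM, SD 9.51), and its difference without replicate 3 was not computed.

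Of the EGR family, EGR1 (chromosome 5, 138465479 to 138469303, plus strand) is a zinc-finger factor induced by growth and stress signals. Its soluble libraries held 95.5, 100.1 and 97.4 CPM in Ctrl, 323, 300.3 and 309.7 after NaAsO2, 248, 292 and 352 after RK-33 and 1069, 1193 and 1234 in Combo. The insoluble libraries held 51.3, 52.9 and 52.3 in Ctrl, 506, 420.4 and 287 after NaAsO2, 156, 139.9 and 189 after RK-33 and 476, 522 and 552 in Combo. Soluble Combo lay above every other EGR1 library, whereas insoluble Combo overlapped insoluble NaAsO2. Replicate 3 of the insoluble NaAsO2 group was the lowest of its group for EGR1, at 0.619 times the mean of the other two, opposite in direction to the JUN genes. EGR2 (chromosome 10, 62811996 to 62819167, minus strand), best known as a regulator of myelination, stood at 8.29, 7.64 and 8.88 CPM in soluble Ctrl, 18.3, 20.9 and 20.2 after NaAsO2, 13.5, 18.5 and 24.1 after RK-33 and 24.1, 34.0 and 33.7 in Combo. Its insoluble levels were 3.36, 4.54 and 5.50 in Ctrl, 27.8, 22.8 and 15.2 after NaAsO2, 13.5, 9.60 and 17.4 after RK-33 and 17.6, 21.4 and 18.04 in Combo. Every treated EGR2 library lay above the Ctrl libraries of its fraction, and insoluble Combo overlapped insoluble NaAsO2. EGR3 (chromosome 8, 22687659 to 22693480, minus strand) ranged over all libraries from 0.607 to 2.92 CPM, or 7 to 41 counts. At this depth no treatment or fraction difference of EGR3 was detectable, and its groups overlapped in all 8 treatment comparisons. EGR2 and EGR3 each share exon bases with a lncRNA, 145 and 164 bases, so a part of their fragments could have been left out or credited elsewhere.

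Compared per kilobase of exon, the order of the members changed with treatment. In soluble Ctrl, JUND led at 89.2 ± 6.04 CPM per kb (SD, n = 3), followed by FOSL2 at 71.1 ± 3.51 and FOSL1 at 61.9 ± 8.85, whose libraries overlapped those of FOSL2. JUN at 48.6 ± 3.69 lay below FOSL1, EGR1 at 31.1 ± 0.734 and JUNB at 28.5 ± 4.49 overlapped each other, and FOS at 8.99 ± 1.22 came only ahead of EGR2, FOSB and EGR3. In soluble Combo, EGR1 led at 371 ± 27.4 CPM per kb, JUN followed at 264 ± 22.6, and JUND at 188 ± 11.3 and FOS at 186 ± 24.4 overlapped. Within the FOS family, FOS made up 6.26% of the summed CPM per kb in soluble Ctrl, 21.7% after NaAsO2, 15.4% after RK-33 and 48.9% in Combo, while FOSL2 went from 49.7% in Ctrl to 16.6% in Combo. The insoluble fraction showed 6.91% FOS in Ctrl and 42.8% in Combo. EGR1 made up 92.0% to 97.8% of the EGR family in all 8 groups.

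The first comparison sets NaAsO2 alone against Ctrl. In the soluble fraction 5 of 10 members rose, where a rise is an adjusted p under 0.05 in edgeR's quasi-likelihood test with a log2 fold change of at least 1, against 0.492% of all genes tested. FOS rose by 2.29 (SE 0.14, edgeR adjusted p = 7.26e-10) on the log2 scale, EGR1 by 1.67 (SE 0.16, edgeR adjusted p = 8.55e-07), EGR2 by 1.26 (SE 0.24), JUNB by 1.21 (SE 0.22) and FOSB by 1.17 (SE 0.23). JUN missed the fold limit at 1.00 (SE 0.23, edgeR adjusted p = 0.00568), and FOSL1 was at 0.75 (SE 0.12) and FOSL2 at -0.46 (SE 0.11). The members' median was 1.08 against 0.03 over all genes. Of the insoluble levels 8 of 10 rose, against 5.61% of all genes, and the median log2 fold change of the members was 1.64 against -0.02 over all genes. EGR1 rose most, by 2.95 (SE 0.17, edgeR adjusted p = 5.76e-11), followed by FOS at 2.57 (SE 0.14), JUNB at 2.35 (SE 0.23), EGR2 at 2.30 (SE 0.26), FOSB at 1.68 (SE 0.23), JUN at 1.60 (SE 0.23), FOSL1 at 1.52 (SE 0.12) and JUND at 1.15 (SE 0.23). FOSL2 stood just under the fold limit, at 0.96 (SE 0.11, edgeR adjusted p = 7.58e-07). Without replicate 3 of the insoluble NaAsO2 group, JUND was no longer called at 0.70, JUN stood at 1.16 and JUNB at 1.94. JUND was also not called, at 1.195, when only the compared groups were fitted (edgeR adjusted p = 0.0575). FOSB in the soluble fraction stood just under the limit, at 1.00, without replicate 2 of soluble NaAsO2. Soluble JUN passed the limit without replicate 1 (1.04) or 3 (1.01) of soluble Ctrl, and insoluble FOSL2 without replicate 3 of insoluble Ctrl (1.01) or replicate 1 of insoluble NaAsO2 (1.13).

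RK-33 alone, without arsenite, raised 5 members in each fraction, FOS, JUN, JUNB, EGR1 and EGR2. The share of all genes that rose was 0.283% (soluble) and 0.702% (insoluble). In the soluble fraction FOS rose by 1.84 (SE 0.14, edgeR adjusted p = 2.37e-08), EGR1 by 1.60 (SE 0.16), JUN by 1.51 (SE 0.23), EGR2 by 1.18 (SE 0.24) and JUNB by 1.15 (SE 0.22). The insoluble fraction gave 1.63 (SE 0.16) for EGR1, 1.62 (SE 0.14) for FOS, 1.59 (SE 0.26) for EGR2, 1.17 (SE 0.23) for JUN and 1.12 (SE 0.23) for JUNB. FOSB did not pass, at 0.23 (SE 0.23, edgeR adjusted p = 0.667) in soluble and 0.29 (SE 0.24, edgeR adjusted p = 0.492) in insoluble libraries. Replicate 3 of the soluble RK-33 group was the highest of its group for FOS, FOSL1, FOSL2, JUN, JUNB, JUND, EGR1 and EGR2, and without it EGR2 (0.96) and JUNB (0.97) lay just under the fold limit. The NaAsO2 and RK-33 comparisons share the Ctrl libraries. With RK-33 the members' median was 0.88 (soluble) and 0.92 (insoluble), against -0.01 and -0.00396 over all genes.

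**Figure D2:**
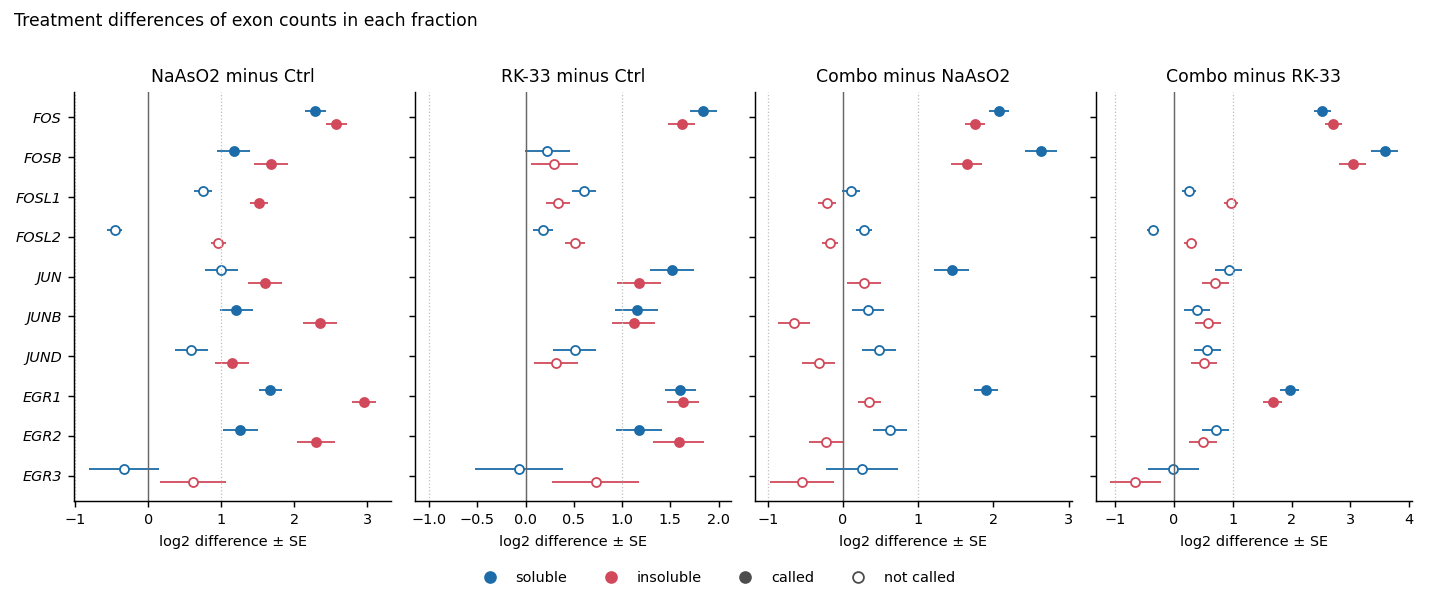
Log2 differences of exon counts with their SE for the 4 treatment comparisons, with members on the vertical axis, blue for the soluble and red for the insoluble fraction, and filled points for called differences (dotted lines at -1 and 1). FOS is called in all 8 tests and FOSB in the 6 other than RK-33 minus Ctrl, while Combo minus NaAsO2 separates the fractions for JUN and EGR1.

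Adding RK-33 to NaAsO2 raised FOS, FOSB, JUN and EGR1 further in the soluble fraction, 4 of 10 members against 2.41% of all genes. These rises are relative to the other RNA of each library. The study joined both fractions, scaled to spike-ins and reported less cytoplasmic RNA content in Combo, and the scalings were not compared here. FOSB rose by 2.64 (SE 0.21, edgeR adjusted p = 2.59e-08), FOS by 2.08 (SE 0.14), EGR1 by 1.91 (SE 0.16) and JUN by 1.44 (SE 0.23). Of insoluble levels 2 of 10 rose, FOS by 1.75 (SE 0.14, edgeR adjusted p = 1.57e-08) and FOSB by 1.65 (SE 0.21), against 3.11% of all genes. EGR1 was at 0.35 (SE 0.15, edgeR adjusted p = 0.12) there, JUN at 0.28 (SE 0.22, edgeR adjusted p = 0.396) and JUNB at -0.65 (SE 0.22, edgeR adjusted p = 0.0491). Without replicate 3 of the insoluble NaAsO2 group JUN stood at 0.74, EGR1 at 0.11 and JUNB at -0.22, none of them called. When only the compared groups were fitted, FOSB in the insoluble fraction kept its size, 1.63, but was no longer called. The members' median was 0.55 (soluble) and -0.19 (insoluble), against -0.04 and 0.01 over all genes.

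Adding NaAsO2 to RK-33 raised the same 3 members in both fractions, FOS, FOSB and EGR1, against 1.83% (soluble) and 1.23% (insoluble) of all genes. FOSB showed the widest exon difference of any member in any comparison, 3.58 (SE 0.22, edgeR adjusted p = 2.69e-10) in soluble and 3.04 (SE 0.23) in insoluble libraries. FOS rose by 2.52 (SE 0.14) and 2.71 (SE 0.14), and EGR1 by 1.97 (SE 0.16) and 1.68 (SE 0.16). FOSL1 in the insoluble fraction passed on p and missed the fold limit, at 0.97 (SE 0.12, edgeR adjusted p = 1.73e-05). JUN in the soluble fraction was at 0.93 (SE 0.23, edgeR adjusted p = 0.0191), and passed the limit without replicate 3 of soluble RK-33 (1.05) or replicate 1 of soluble Combo (1.01).

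Whether NaAsO2 acted differently with RK-33 present was tested as the difference between the 2 NaAsO2 effects, Combo minus RK-33 less NaAsO2 minus Ctrl. In the soluble fraction only FOSB of the 10 members was called, against 0.957% of all genes in either direction. The effect of NaAsO2 on FOSB was greater by 2.41 (SE 0.31, edgeR adjusted p = 0.000537) with RK-33, a factor of 5.32. FOS gave 0.23 (SE 0.19, edgeR adjusted p = 0.542) and EGR1 0.30 (SE 0.22, edgeR adjusted p = 0.496), neither of them called. For the insoluble fraction 4 members were called, against 3.97% of all genes. FOSB was again greater, by 1.35 (SE 0.32, edgeR adjusted p = 0.00843), whereas EGR2 stood at -1.80 (SE 0.34, edgeR adjusted p = 0.00194), JUNB at -1.77 (SE 0.31, edgeR adjusted p = 0.00104) and EGR1 at -1.28 (SE 0.22, edgeR adjusted p = 0.000945). Without replicate 3 of the insoluble NaAsO2 group these became 1.502 for FOSB, -2.06 for EGR2, -1.35 for JUNB and -1.53 for EGR1, all still called. FOSB in the insoluble fraction was no longer called when only the insoluble groups were fitted, at 1.31. JUN was at -0.89 (SE 0.32, edgeR adjusted p = 0.069) and was called without replicate 1 (-1.16) or 2 (-1.06) of insoluble NaAsO2 or replicate 3 of insoluble Combo (-1.16). JUN stood at -0.45 (edgeR adjusted p = 0.124) without replicate 3 of insoluble NaAsO2.

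**Figure D3:**
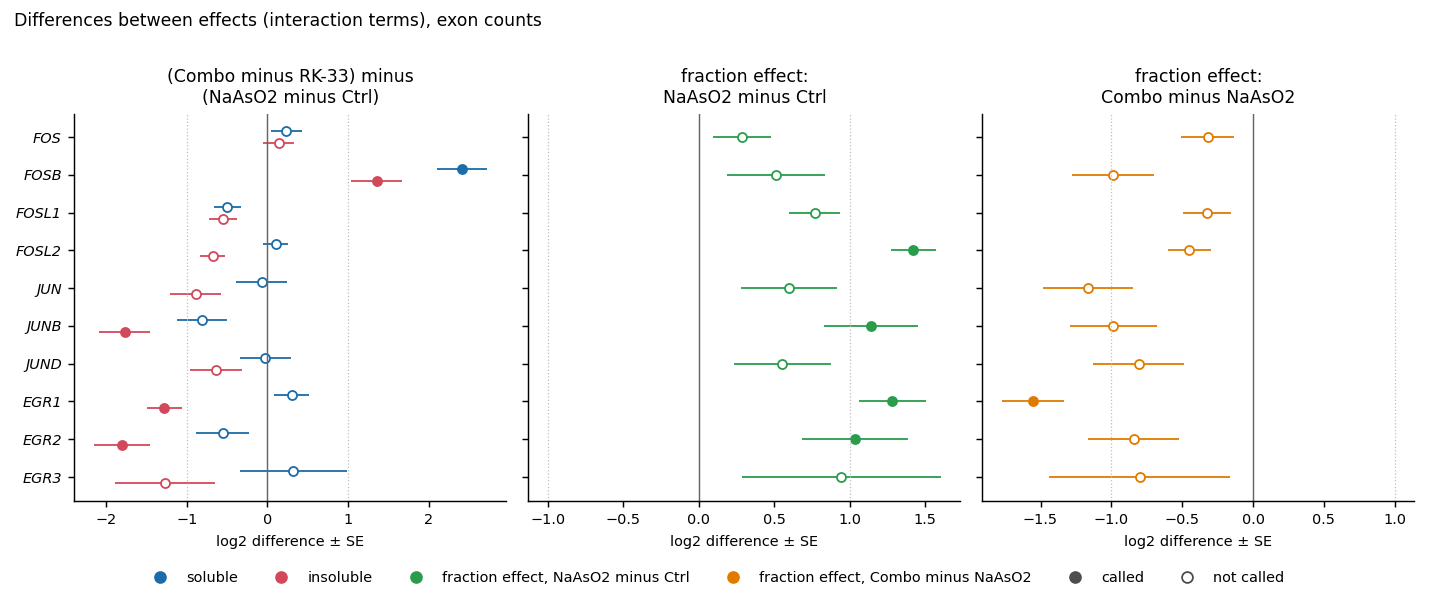
Differences between effects with their SE, for the NaAsO2 effect with RK-33 less that without (left, blue for the soluble and red for the insoluble fraction), for the fraction effect after NaAsO2 less that in Ctrl (middle), and for the fraction effect in Combo less that after NaAsO2 (right), on log2 axes that differ between panels, with filled points for called differences. FOSB lies to the right of 1 in both fractions of the left panel, and the Combo panel has EGR1 as its one called member.

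The fraction effect, insoluble minus soluble, tells how a transcript was distributed relative to the other RNA of each fraction. FOSL1 was lower in the insoluble fraction in Ctrl, at -1.17 (SE 0.12, edgeR adjusted p = 9.21e-08), the one member called against 22.5% of all genes in either direction. After RK-33 it was again the one called, at -1.44 (SE 0.12), against 30.7% of all genes. FOSL2 was higher in the insoluble fraction after NaAsO2, by 1.64 (SE 0.11, edgeR adjusted p = 2.61e-11), the one member called against 30.6% of all genes. In Combo 2 members were called against 23.1% of all genes, FOSL2 at 1.19 (SE 0.11) and EGR1 at -1.17 (SE 0.16). FOS lay between -0.35 (SE 0.13) after RK-33 and 0.16 (SE 0.13) after NaAsO2, the narrowest range of the 4 fraction effects among the 10 members. After NaAsO2, JUN was at 0.87 (SE 0.23) and JUNB at 0.87 (SE 0.22). Without replicate 3 of the insoluble NaAsO2 group JUN and JUNB stood at 0.40 and 0.42 and EGR1, at 0.38 with all libraries, at 0.61. JUN and JUNB passed the limit without replicate 1 (1.18 and 1.14) or 2 (1.04 and 1.06) of the same group. Without replicate 3 of insoluble Ctrl, EGR2 was also called lower in the insoluble fraction in Ctrl, at -1.10, and without replicate 3 of insoluble RK-33, EGR1 was also called after RK-33, at -1.05. In Combo, JUND stood at -1.01 and was called without replicate 3 of insoluble Combo.

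**Figure D4:**
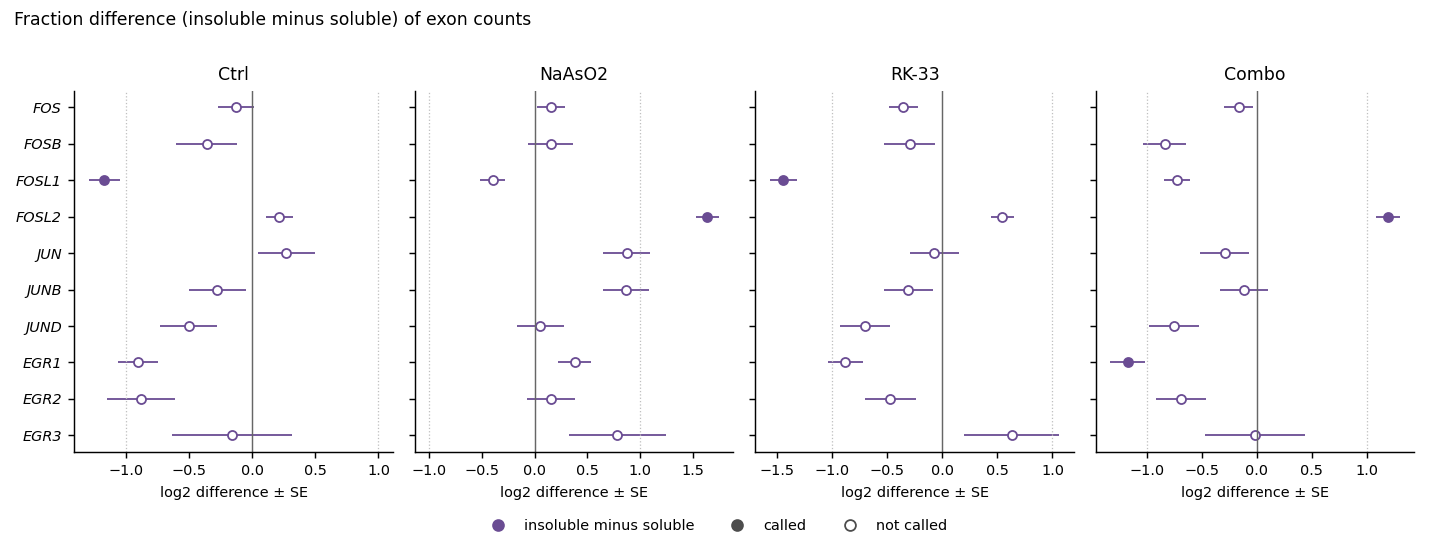
Insoluble minus soluble log2 difference of exon counts with its SE in each treatment, with filled points for called differences and dotted lines at -1 and 1. FOSL1 lies left of -1 in Ctrl and RK-33, FOSL2 lies right of 1 after NaAsO2 and in Combo, and EGR1 lies left of -1 in Combo.

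The change of the fraction effect with NaAsO2 was called for 4 members, against 9.56% of all genes, and all 4 shifted towards the insoluble fraction. FOSL2 shifted by 1.42 (SE 0.15, edgeR adjusted p = 1.91e-06), EGR1 by 1.28 (SE 0.22, edgeR adjusted p = 0.000275), JUNB by 1.14 (SE 0.31, edgeR adjusted p = 0.011) and EGR2 by 1.04 (SE 0.35, edgeR adjusted p = 0.0371). Without replicate 3 of the insoluble NaAsO2 group JUNB stood at 0.75 and was not called, while EGR1 stood at 1.56, EGR2 at 1.31 and FOSL2 at 1.37. EGR2 lost its call in 7 of the 12 fits that left out 1 library, namely replicate 1 or 3 of soluble Ctrl, 1 or 2 of insoluble Ctrl, 2 of soluble NaAsO2, or 1 or 2 of insoluble NaAsO2, at 0.87 to 1.08. FOS was at 0.28 (SE 0.19, edgeR adjusted p = 0.305). The fraction effect in Combo less that after NaAsO2 uses the same NaAsO2 libraries with opposite sign, so it is not independent of the change with NaAsO2. This second difference was negative for all 10 members, with a median of -0.83 against 0.00161 over all genes, and EGR1 was the one called member, at -1.55 (SE 0.22) against 0.142% of all genes. The 10 values come from the same libraries, and their median was -0.66 without replicate 3 of insoluble NaAsO2. JUN was at -1.16 (SE 0.32, edgeR adjusted p = 0.106) and FOSB at -0.99 (SE 0.29, edgeR adjusted p = 0.135). The count went from 1 to 5 without replicate 1 of insoluble NaAsO2, to 3 without replicate 3 of insoluble Combo and to 2 without replicate 3 of insoluble NaAsO2. In the last of these EGR2 was called at -1.12, while JUN stood at -0.74, JUNB at -0.59 and JUND at -0.37, against -1.16, -0.985 and -0.81 with all libraries. Over all 12 fits without 1 library EGR1 ranged from -1.83 to -1.48, and it was not called, at -1.54, when only the groups compared were fitted.

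Intron counts are fragments within introns, which can come from unspliced RNA, from excised introns or from other transcripts made there, and the tables do not separate these. By these counts 5 members were tested among 17406 genes. JUNB and JUND have no intron entry, and FOSB, EGR2 and EGR3 are listed at 0 intron counts in every library. These 3 genes overlap ERCC1 or a lncRNA, whose part in the zeros was not tested, so the zeros set no limit on their intron RNA. FOS introns, 219 bases in all, held 4, 3 and 4 counts in soluble Ctrl, 31, 41 and 42 after NaAsO2, 18, 23 and 8 after RK-33 and 104, 91 and 126 in Combo. The insoluble counts were 3, 5 and 1 in Ctrl, 48, 17 and 23 after NaAsO2, 15, 12 and 34 after RK-33 and 98, 88 and 54 in Combo. EGR1 introns held 33, 31 and 19 counts in soluble Ctrl, 127, 140 and 138 after NaAsO2, 93, 132 and 127 after RK-33 and 389, 356 and 340 in Combo. Of the soluble groups Ctrl was lowest and Combo highest for both genes, and Ctrl did not overlap any treatment in either fraction for FOS or EGR1. After NaAsO2, 2 of 5 members rose on introns in the soluble fraction, against 0.925% of all genes, FOS by 3.74 (SE 0.44, edgeR adjusted p = 2.4e-06) and EGR1 by 2.698 (SE 0.29). In the insoluble fraction 3 of 5 rose, against 10.1% of all genes, FOS by 3.67 (SE 0.47), EGR1 by 3.37 (SE 0.35) and FOSL1 by 2.24 (SE 0.25, edgeR adjusted p = 4.7e-07). Without insoluble NaAsO2 replicate 3 the FOSL1 intron value was 1.67 and still called.

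RK-33 raised the introns of 2 of 5 members in the soluble fraction, against 0.62% of all genes, EGR1 by 2.02 (SE 0.29, edgeR adjusted p = 6.78e-05) and FOS by 1.99 (SE 0.51, edgeR adjusted p = 0.0457). The FOS call rested on few counts and was lost in 5 of the 6 fits that left out 1 library, each except the one without replicate 3 of soluble RK-33, at 1.75 to 2.10. In the insoluble fraction 3 of 5 rose, against 0.689% of all genes, EGR1 by 2.77 (SE 0.35), FOS by 2.59 (SE 0.50) and JUN by 1.67 (SE 0.35). JUN was not called without replicate 3 of insoluble Ctrl (1.57). The canonical JUN transcript has 1 exon, so its intron entry of 3580 bases is the rest of the gene's annotated span, outside the exons of all isoforms, and is not an intron of that mRNA. The JUN intron entry held 16, 15 and 12 counts in insoluble Ctrl, 14, 5 and 1 after NaAsO2, 61, 42 and 47 after RK-33 and 27, 25 and 15 in Combo. The insoluble RK-33 libraries lay above the other insoluble libraries on this entry.

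When RK-33 was added to NaAsO2, 0 of 5 members were called on introns in the soluble fraction by edgeR's quasi-likelihood test, against 5.37% of all genes, although 4 had an unadjusted p under 0.05. DESeq2 called 0 and edgeR's likelihood ratio test 1. JUN was called by the last, at 1.08. FOS introns were at 0.85 (SE 0.29, edgeR adjusted p = 0.0418) and EGR1 introns at 0.80 (SE 0.24, edgeR adjusted p = 0.0222), against exon differences of 2.08 and 1.91 in the same comparison. The difference between exon and intron changes was not tested. JUN was the one of 5 called in the insoluble fraction, at 1.29 (SE 0.44) against 6.34% of all genes, and it lost the call in 4 of the 6 fits without 1 library (without replicate 2 or 3 of NaAsO2, or 1 or 2 of Combo), at 0.88 to 1.24, and when only the groups compared were fitted, at 1.33. When NaAsO2 was added to RK-33, 3 of 5 rose in the soluble fraction against 8.81% of all genes, FOS by 2.60 (SE 0.32, edgeR adjusted p = 3.74e-07), EGR1 by 1.47 (SE 0.24) and FOSL1 by 1.36 (SE 0.24). The same 3 rose in the insoluble fraction, against 9.73% of all genes, FOS by 2.07 (SE 0.31), FOSL1 by 1.86 (SE 0.24) and EGR1 by 1.24 (SE 0.26). JUN introns fell there by 1.03 on the log2 scale (SE 0.33, edgeR adjusted p = 0.0194), against 4.66% of all genes called lower. They were not called without replicate 1 or 3 of insoluble RK-33 or replicate 3 of insoluble Combo.

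**Figure D5:**
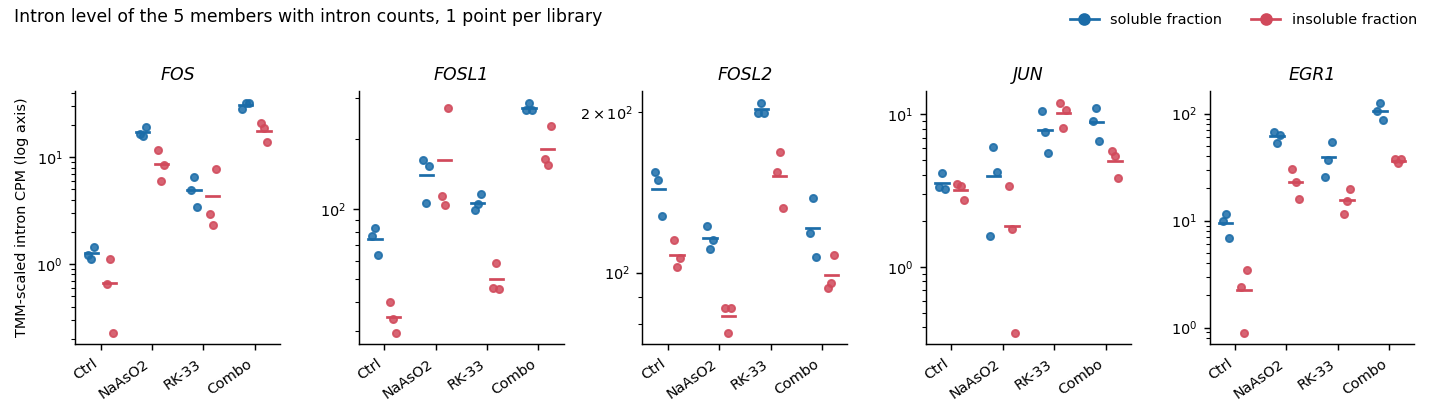
TMM-scaled intron CPM (log axis, with its own range in each panel) of the 5 members with intron counts, with 1 point per library and a bar at the mean of 3, in blue for the soluble and red for the insoluble fraction. FOS and EGR1 introns lie lowest in Ctrl, FOSL2 introns have their highest group mean after RK-33 in both fractions, and JUN introns are highest after RK-33 in the insoluble fraction.

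The ratio of intron to exon counts depends on intron length, 6638 bases for FOSL1 and 17279 for FOSL2, so it was followed within each gene and not compared between them. FOSL1 intron counts were 18.2% ± 3.45 (SD, n = 3) of its exon counts in soluble Ctrl, 15.6% ± 1.02 after NaAsO2, 15.4% ± 3.49 after RK-33 and 37.0% ± 7.78 in Combo, and the Combo libraries lay above all others of the soluble fraction. In the insoluble fraction the FOSL1 ratio was 30.2% ± 3.64 in Ctrl, 30.8% ± 21.7 after NaAsO2, 35.1% ± 7.72 after RK-33 and 45.5% ± 2.97 in Combo. There the Combo libraries overlapped those of NaAsO2 and RK-33. FOSL2 introns were 8.39% ± 1.25 of its exon counts in insoluble Ctrl and 8.23% ± 1.31 after RK-33, against 1.98% ± 0.566 after NaAsO2 and 3.18% ± 0.523 in Combo, and these libraries did not overlap. In the soluble fraction the FOSL2 groups overlapped, at means of 7.99% in Ctrl, 7.0% after NaAsO2, 8.93% after RK-33 and 7.66% in Combo. Introns of all genes took 30.5% to 36.3% of the counts in insoluble Ctrl and 17.2% to 24.3% after NaAsO2. In the soluble fraction this share was 17.7% to 22.3% in Ctrl and 18.1% to 28.4% in Combo. The ratios were not adjusted for this. FOSL2 introns gave -0.38 (SE 0.13, edgeR adjusted p = 0.0286) in NaAsO2 minus Ctrl of the insoluble fraction, against 0.96 on exons. Fragments of the intronic lncRNA and of the antisense gene that overlap FOSL2 could not be separated by strand.

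Other genes of the same circuits were followed as whole lists. Of 13 AP-1 dimer partners, 11 were tested, and ATF3, a stress-induced member of the ATF family, was the 1 called higher with NaAsO2 in the soluble fraction, where 0.492% of all genes rose. ATF3 rose in all 8 treatment comparisons, by 1.54 (SE 0.11) with NaAsO2 and 1.76 (SE 0.11) with RK-33 in the soluble fraction, and by a further 2.31 (SE 0.10) when RK-33 was added to NaAsO2. For this last step the study reported the opposite direction, a decrease of ATF3. The study's comparison joined both fractions and was scaled to spike-ins, and the scalings were not compared here. MAFF, a small MAF protein without a transactivation domain, was at 0.64 (SE 0.19) in soluble and rose by 1.31 (SE 0.19) in insoluble libraries with NaAsO2, and MAFG was at -0.25 (SE 0.19) and rose by 1.49 (SE 0.19). Of the insoluble levels 6 of the 11 rose with NaAsO2, against 5.61% of all genes, and the list median was 1.27. The count was 3 (ATF3, MAFF, MAFG) and the median 0.64 without replicate 3 of insoluble NaAsO2. EGR4, the fourth EGR gene, rose with NaAsO2 by 1.40 (SE 0.38) in soluble and 2.19 (SE 0.39) in insoluble libraries, and by 1.61 (SE 0.31) in the soluble fraction when RK-33 was added. NAB2, a corepressor of EGR proteins that EGR1 induces, rose by 1.16 (SE 0.20) with NaAsO2 in the insoluble fraction, where it was not called without replicate 3 of NaAsO2, and was at 0.50 (SE 0.20) in the soluble one.

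Of 22 other immediate early genes, all 22 were tested. With NaAsO2, 3 rose in soluble and 13 in insoluble libraries, against 0.492% and 5.61% of all genes, with list medians of 0.49 and 1.42 against 0.03 and -0.02 over all genes. The insoluble count was 16 and the median 1.31 without replicate 3 of insoluble NaAsO2. RK-33 raised 2 in the soluble (ATF3, IER2) and 3 in the insoluble fraction (ATF3, NR4A2, TRIB1), against 0.283% and 0.702% of all genes. When RK-33 was added to NaAsO2, 5 rose in the soluble fraction (ATF3, BTG2, IER5, SGK1, ARC) and ATF3 alone of the list in the insoluble fraction, against 2.41% and 3.11% of all genes. ARC was also called in the latter without replicate 3 of insoluble NaAsO2. IER2 rose by 1.45 (SE 0.15) with NaAsO2 in the soluble fraction. BTG2, an antiproliferative gene, was at 0.99 (SE 0.14) in soluble and rose by 2.03 (SE 0.15) in the insoluble fraction with NaAsO2. When RK-33 was added to NaAsO2 it rose by a further 1.34 (SE 0.14) in the soluble fraction and was at 0.12 (SE 0.14) against insoluble NaAsO2, and its fraction effect in Combo less that after NaAsO2 was called, at -1.22 (SE 0.19). ATF3 stands in this list and in that of the AP-1 partners.

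Across the 24 libraries, the genes with profiles most like FOS among 10251 genes averaging 10 CPM or more, members left out, were ATF3 (Pearson r = 0.952), PPP1R15A (0.949) and CHAC1 (0.945). JUN was most like DUSP1 (0.959), MAFF (0.952) and JMJD6 (0.951), and EGR1 was most like BTG2 (0.963), ZFP36 (0.963) and ATF3 (0.94). These are descriptions over libraries that share 4 treatments and 2 fractions. DUSP1, a phosphatase of MAP kinases, stood at group means of 72.7 CPM in soluble Ctrl and 324 CPM in soluble Combo, and ZFP36, a protein that binds AU-rich elements, at 11.6 and 128 CPM.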

How the data were processed

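The authors sequenced rRNA-depleted RNA of soluble and insoluble cytoplasm, aligned fragments with STAR 2.7.2b to GRCh38, used SAMtools 1.2 and deposited raw exon and intron counts per gene from featureCounts 1.5.3 with GENCODE 40, counted without strand although the library kit is directional. Intron fragments needed an overlap of 25 bases. Spike-ins were not used here, whereas the study scaled its comparison of Combo with NaAsO2 to them and reported less cytoplasmic RNA content in Combo. Rows broken over several lines were rejoined (1 exon and 21 intron genes), and 0 columns lacked a sample.

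From the deposited counts, TMM factors and a filter of a mean of at least 1 CPM were applied, and all 24 libraries in 8 groups were fitted with edgeR 4.0.16 (R 4.3.3, quasi-likelihood test, Benjamini-Hochberg over all genes tested). Calls needed an adjusted p under 0.05 with a log2 difference of 1 or more in either direction. SE is the log2 fold change divided by the square root of F. The tests were tried on simulated counts first. Alternatives were the likelihood ratio test, DESeq2 1.42.0, RLE factors, library size alone, no filter, only the groups compared, the replicate number as a block, no fold-change limit, each library left out, and exon plus intron counts. For the fraction effects and their changes the lysate was also tried as a block. The gene lists without replicate 3 of insoluble NaAsO2 were added after seeing the data. Depth was 10968059 to 19799530 counts per library. Replicates differed by more than counting error (chi-square per degree of freedom 2.39 to 142). Named genes are the 10 members, up to 4 per list with the smallest p in soluble NaAsO2 minus Ctrl, and the 3 genes most correlated with FOS, JUN and EGR1 on log2(CPM + 0.5). Names beside a count of called list genes fall outside that rule and were chosen after their values were seen. Members and lists were chosen with earlier results of these data known. Promoters came from RefSeq and 3′ UTR sites from GENCODE 44, both on GRCh38. Python 3.11.15, numpy 2.4.6, pandas 2.3.3 and matplotlib 3.10.9 were used.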

Additional observations from a re-analysis of the deposited data

Results flagged for a closer look

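There were 10 differences between effects that passed the test of the difference itself, an interaction term in edgeR's quasi-likelihood fit across all genes. The insoluble minus soluble difference was larger after NaAsO2 than in Ctrl for FOSL2 (by 1.42 on the log2 scale), EGR1 (1.28), JUNB (1.14) and EGR2 (1.04), of which JUNB rested on replicate 3 of insoluble NaAsO2 (0.75 without it) and EGR2 on several libraries. The same difference was smaller in Combo than after NaAsO2 for EGR1 (-1.55), which was not called when only the groups compared were fitted (-1.54). The NaAsO2 effect was larger with RK-33 than without it for FOSB in soluble (2.41) and insoluble libraries (1.35), the latter not called when only the groups compared were fitted (1.31). In the insoluble fraction it was smaller with RK-33 for EGR2 (-1.80), JUNB (-1.77) and EGR1 (-1.28), while both NaAsO2 effects on EGR1, 2.95 without and 1.68 with RK-33, were called. FOS showed no called difference between effects, at 0.23 (soluble) and 0.14 (insoluble).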

How the results depend on the processing

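Of 24 counts of called members, each under 14 to 21 alternatives, 331 values stayed within 1.5 times the main count and 45 did not. No called member value changed sign under any alternative (0 of 68). Among the 132 values not called, 19 changed sign under at least 1 alternative, the largest of them 0.325 in size.

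For the fraction effects, the count went from 1 to 2 in Ctrl and after RK-33 with no filter on low counts, to 3 and 2 with exon plus intron counts, and to 3 in Ctrl, 5 after NaAsO2, 5 after RK-33 and 6 in Combo (main count 2) with no fold-change limit. The share of all genes called was not set beside the counts under these alternatives. These counts therefore describe the processing and are not read as particular to the members. Leaving out 1 library gave 1 to 2 in Ctrl, 1 to 3 after NaAsO2, and 1 to 2 after RK-33. NaAsO2 minus Ctrl in the soluble fraction went from 5 to 8 with no fold-change limit, and RK-33 minus Ctrl there ranged from 3 to 5 without 1 library. Combo minus NaAsO2 in the insoluble fraction went from 2 to 1 when only the groups compared were fitted. The fraction effect in Combo less that after NaAsO2, with 1 member called, gave 2 by the likelihood ratio test and with library size alone, 4 with no filter and by DESeq2, 0 with only the groups compared, and 1 to 5 without 1 library. On introns, RK-33 minus Ctrl in the soluble fraction ranged from 1 to 2 without 1 library. Combo minus NaAsO2 on introns gave, in the soluble fraction (0 called), 1 by the likelihood ratio test and with the replicate block, 3 with no fold-change limit and 0 to 1 without 1 library. In the insoluble fraction (1 called) it gave 2 with RLE factors, with no filter, by DESeq2 and with no fold-change limit, 0 with only the groups compared, and 0 to 2 without 1 library. Fewer samples stand behind the fits of only the groups compared. Otherwise the cause was not tested.

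Library size alone moved the median of all genes by -0.184 in soluble NaAsO2 minus Ctrl, where FOSB then stood at 0.99 and was not called, by 0.112 in soluble Combo minus NaAsO2, by 0.102 in the change of the fraction effect with NaAsO2 and by 0.182 in the soluble difference between NaAsO2 effects. On introns it moved by -0.106, -0.113 and -0.19 in Combo minus NaAsO2 (insoluble, soluble) and soluble Combo minus RK-33.

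The replicate numbers were not taken as pairs. Deviations of same-numbered fractions correlated at -0.295 to 0.126 (2 of 12 pairs over 0.1), 4 of 12 soluble libraries correlated best with the insoluble library of their number, and same-numbered treatments correlated at -0.316 to 0.227 (soluble) and -0.234 to 0.694 (insoluble). With the replicate number as a block, members called went from 8 to 9 in insoluble NaAsO2 minus Ctrl (FOSL2 at 1.01), from 4 to 3 in the insoluble difference between NaAsO2 effects (FOSB at 1.33, edgeR adjusted p = 0.0629), and from 3 to 2 on introns in insoluble RK-33 minus Ctrl (FOS at 2.56). With few counts for EGR3 (7 to 41) and for FOS and JUN introns, depth limits those values.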

Other observations

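Of 21 kinases and factors upstream of immediate early genes (SRF, ELK, MRTF and MAP kinase genes), 20 were tested, and 0 were called by edgeR's quasi-likelihood test with NaAsO2 or with RK-33 in the soluble fraction, where 6 and 5 had an unadjusted p under 0.05 and 0.492% and 0.283% of all genes rose. DESeq2 and the likelihood ratio test also called 0 there, and the median log2 fold changes were 0.10 and -0.05. With NaAsO2 in the insoluble fraction 3 rose (SRF, MAPK12, MAPK11), against 5.61% of all genes, with a list median of 0.47. SRF, MAPK12 and MAPK11 were not called there without replicate 3 of insoluble NaAsO2, and the list median was then 0.48. ELK1, a partner of serum response factor, was at 0.56 (SE 0.12) there.

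Of 15 genes commonly listed as AP-1 or EGR targets, 14 were tested, and 0 were called by edgeR's quasi-likelihood test with NaAsO2 in the soluble fraction, with a median of -0.18. That count is near the share of all genes that rose in this comparison, 0.492%. There, 6 had an unadjusted p under 0.05, and DESeq2 and the likelihood ratio test called 0. MMP9 was called lower with NaAsO2 in the insoluble fraction, and CXCL8 was also called higher there without replicate 3 of NaAsO2. The shares of all genes for these 2 calls are not given here. CXCL8, a chemokine, was called higher with RK-33 in the insoluble fraction and in soluble Combo minus NaAsO2, where 0.702% and 2.41% of all genes rose. NDRG1, a stress-induced gene, rose in insoluble Combo by 1.40 (SE 0.10) against NaAsO2 and by 1.28 (SE 0.10) against RK-33, where 3.11% and 1.23% of all genes rose.

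The summed level of 4 nuclear RNAs (MALAT1, NEAT1, KCNQ1OT1 and MEG3) was 6290 to 15600 CPM in soluble and 2350 to 8830 CPM in insoluble libraries, and lowest in insoluble NaAsO2 (2350 to 3470 CPM). The sum hides opposite directions. Of the 3 tested, KCNQ1OT1 and NEAT1 were called higher and MALAT1 lower in the insoluble fraction in each treatment. Between 22.5% and 30.7% of all genes were called there in either direction. The part of these RNAs in the intron values was not tested.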
